A study of Mus musculus with 6 samples.

Results

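The genes described here encode the subunits of AP-1, a family of paired transcription factors, in primary mouse cardiac fibroblasts treated with a growth factor. They are the 4 Fos genes (Fos, Fosb, Fosl1 and Fosl2), the 3 Jun genes (Jun, Junb and Jund) and Atf3, 8 genes of the 18059 in the tables, chosen by symbol. All 8 were present in every table and passed the filter on low counts. Fibroblasts were taken from digested hearts of C57BL/6 mice aged 1 to 2 weeks, grown in medium with 15% serum, and given saline (control, 3 libraries) or PDGF-DD (3 libraries) for 12 hours. PDGF-DD, the mature form of platelet-derived growth factor D, acts mostly on the receptor PDGFRβ. The labels give its dose as 20 µM, far above what growth factors are used at, which leaves that unit in doubt. They also conflict on genotype: by the growth protocol every culture was made from mice lacking PDGF-D throughout the body, whereas the genotype field reads control for the saline samples and PDGF-D -/- for the treated ones. If that field is right, genotype and treatment cannot be told apart. Nothing in the labels says that replicate libraries came from separate cultures or animals, so p-values measure only the spread between libraries, which may be technical.

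Fos and Jun proteins bind DNA in pairs through a basic region and a leucine zipper. Jun proteins can pair with each other, whereas Fos proteins need a Jun partner, and the pairs bind the sequence TGANTCA. Fos, Fosb, Jun, Junb and Atf3 are known as immediate early genes, switched on within minutes of growth factor addition through ERK and JNK kinases and usually back near their starting level within hours. Fosl1, which encodes Fra-1, and Fosl2, which encodes Fra-2, come up later and last longer. ERK signalling both raises Fosl1 transcription and stabilises the Fra-1 protein. In fibroblasts AP-1 is known for its part in proliferation, wound repair and matrix turnover.

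The libraries held between 21221114 and 21371829 estimated counts. Of the controls, replicate 1 differed most: chi-square values over genes, divided by their degrees of freedom, were 5.11 and 5.70 for its pairs, 2.48 for the remaining control pair and 1.90 to 2.74 for PDGF-DD pairs. All 7 cardiac fibroblast markers were present, with summed levels of 13393 to 14665 TPM (a level per transcript length, with the same sum in each library) in control and 12265 to 12564 TPM with PDGF-DD. Most of this sum was Col1a1 (7595 to 8337 and 6700 to 7076 TPM) and Col1a2 (4769 to 5255 and 4590 to 4677 TPM). The markers did not move together. Log2 fold changes were -0.22 for Col1a1, -0.13 for Col1a2, -0.22 for Dcn, -0.43 for Lum, -0.60 for Tcf21, -0.01 for Ddr2 and 0.40 for Pdgfra. No marker of another cell type was at 0 in all 6 libraries. Summed over their markers, control and PDGF-DD libraries held 355 to 379 and 311 to 328 TPM for macrophages (6 markers), 114 to 130 and 106 to 113 TPM for endothelium (5 markers), and 311 to 335 and 222 to 251 TPM for cardiomyocytes (6 markers). Single genes carried these macrophage and cardiomyocyte sums: Lyz2 stood at 302 to 329 and 265 to 276 TPM, and Tnnt2 at 306 to 327 and 217 to 246 TPM. Smooth muscle and pericyte markers (5) summed to 86.0 to 96.9 and 66.3 to 69.7 TPM, epicardial markers (4) to 45.2 to 50.9 and 39.6 to 44.6 TPM, and Schwann cell markers (4) to 7.54 to 8.71 and 6.81 to 7.34 TPM. Of the smooth muscle and pericyte markers, Cspg4 rose (log2 fold change 0.24), while Myh11, Notch3 and Rgs5 fell (-1.02, -0.97 and -0.48). The part of these cells in the results below was not tested. In bulk RNA, fewer cells of a type and less RNA per cell cannot be told apart.

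Of the 8 genes, Fosl1, Jun and Junb rose with PDGF-DD, Fosl2 fell slightly, and Fos, Fosb, Jund and Atf3 did not pass the test. Genes were called at an adjusted p under 0.05 (edgeR's quasi-likelihood test, two-sided, Benjamini-Hochberg over 13270 tested genes). Of all tested genes 36.5% were called, 19.1% as higher and 17.4% as lower, so 3 rises and 1 fall among 8 genes are not far from the background. The median log2 fold change was 0.12 over the 8 genes and -0.01 over all tested genes. In 5 of the 8 the groups did not overlap, against 47.1% of all tested genes. Size set Fosl1 apart: its log2 fold change was 2.04, whereas the other 7 lay between -0.16 and 0.32. Upper-quartile scaling gave 3 rises and 2 falls, the added fall being that of Jund. The number of falls was also 2 without control replicate 1 and was 0 without PDGF-DD replicate 2.

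**Figure D1:**
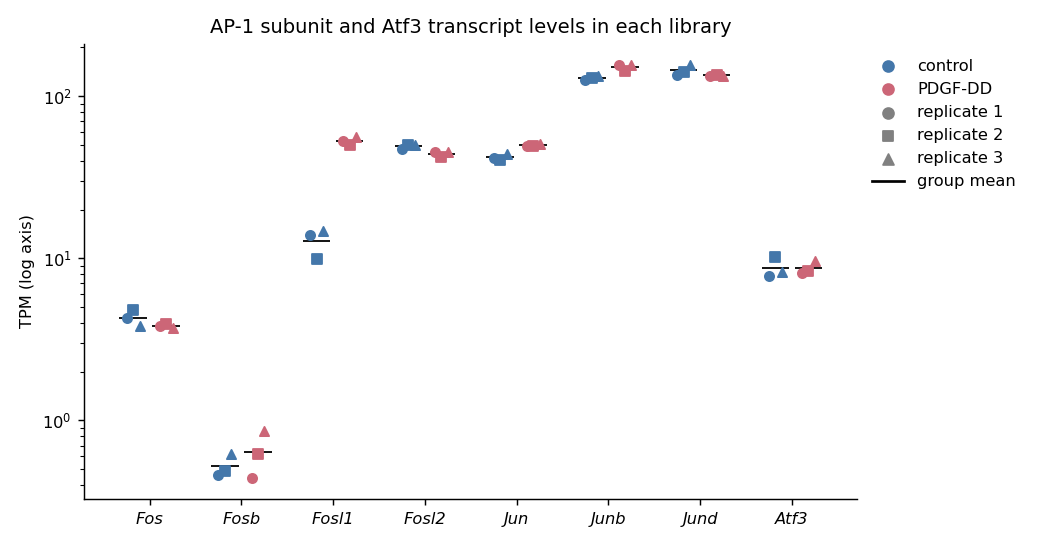
Level of each gene in each library in TPM on a log axis; colours mark the groups, symbols the replicate number and bars the group means. Fosl1 moves from 9.87 to 14.7 TPM in control to 49.7 to 55.6 TPM with PDGF-DD, whereas for every other gene the group means differ by less than 1.5-fold.

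Fosl1 (Entrez gene 14283) stood at 10.5, 7.04 and 10.4 CPM (counts scaled to library size with TMM factors) in control replicates 1, 2 and 3. With PDGF-DD it stood at 38.1, 36.8 and 40.4 CPM. All 3 treated libraries lay far above all 3 controls, and control replicate 2 was the lowest of the 6. Group means were 9.31 ± 1.97 and 38.4 ± 1.82 CPM (SD, n = 3 each), a 4.12-fold difference with a 95% interval of 3.50 to 4.86 (edgeR adjusted p = 1.07e-08). By exact permutation of the libraries (two-sided) p was 0.1, the smallest that 3 against 3 allow. Fosl2, Jun, Junb and also Jund, which was not called, reached the same value, so it does not single out Fosl1. Among controls the coefficient of variation of Fosl1 was 21.2%, against 7.11% from counting alone, whereas with PDGF-DD it was 4.75% against 3.49%. Its deposited counts were not whole in any of the 6 libraries, which was true of no other of the 8 genes, so some of its reads were shared out by estimate between genes or transcripts.

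Fosl2 (Entrez gene 14284), the other late Fos gene, moved the opposite way by a small amount. Controls stood at 124, 125 and 126 CPM and treated libraries at 116, 109 and 115 CPM. The groups did not overlap, and PDGF-DD replicate 2 was the lowest. The log2 fold change was -0.14 (SE 0.04, 95% interval -0.22 to -0.06, edgeR adjusted p = 0.00815). This call was lost without PDGF-DD replicate 2 (edgeR adjusted p = 0.0702) and in limma on log2(TPM + 1) (adjusted p = 0.0562), and over all alternatives the adjusted p ranged from 0.0026 to 0.0702.

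Fos (Entrez gene 14281), the founding member of the family and a classical marker of acute stimulation, was low in both groups. Its counts were 85, 90 and 72 in control and 73, 78 and 72 with PDGF-DD, so the groups overlapped. The means were 3.89 ± 0.44 and 3.48 ± 0.15 CPM (SD, n = 3 each), and the difference did not pass (log2 fold change -0.16, 95% interval -0.45 to 0.13, edgeR adjusted p = 0.396). On the fold scale the interval ended at 1.09, so a rise of the size seen for Fosl1 lay outside it. Only the 12 hour time point was analysed here.

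Fosb (Entrez gene 14282), which encodes a close relative of c-Fos, rested on few reads, with 16, 16 and 21 counts in control and 15, 22 and 30 with PDGF-DD. PDGF-DD replicate 3 was the highest and PDGF-DD replicate 1 the lowest. The fold difference of 1.25 had a 95% interval of 0.827 to 1.89 (edgeR adjusted p = 0.415), which excludes neither a modest fall nor a rise below its upper bound. The Fosb gene gives a full-length and a shortened protein through alternative splicing, and gene-level counts do not separate them.

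Among the Jun genes, Jun (Entrez gene 16476), which encodes c-Jun, the activating partner of most Fos proteins, rose from 59.1, 54.8 and 59.4 CPM in the controls to 67.9, 69.1 and 69.3 CPM with PDGF-DD. The treated libraries lay close together, above every control. The log2 fold change was 0.25 (SE 0.05, 95% interval 0.15 to 0.35, edgeR adjusted p = 0.000131).

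Junb (Entrez gene 16477), a Jun protein with weaker activating capacity that can restrain c-Jun, rose by a like amount. Control libraries stood at 102, 99.4 and 103 CPM and PDGF-DD libraries at 122, 115 and 122 CPM. PDGF-DD replicate 2 was the lowest of the treated group but still above every control. The log2 fold change was 0.23 (SE 0.04, 95% interval 0.15 to 0.32, edgeR adjusted p = 7.85e-05).

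Jund (Entrez gene 16478), which is expressed steadily in most resting cells and can slow proliferation, stood at 173, 172 and 191 CPM in control. With PDGF-DD it stood at 166, 171 and 166 CPM. The groups did not overlap, with control replicate 3 the highest, yet the difference did not pass (log2 fold change -0.09, SE 0.04, edgeR adjusted p = 0.0925). It passed under upper-quartile scaling (adjusted p = 0.0398) and without control replicate 1 (adjusted p = 0.039), within a range of 0.039 to 0.486 over all alternatives.

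Atf3 (Entrez gene 11910), a stress-induced factor that pairs with Jun proteins and often represses, had the same mean in both groups. Controls stood at 6.83, 8.45 and 6.81 CPM and treated libraries at 6.80, 7.24 and 8.11 CPM. The groups overlapped almost wholly, and the highest library of each was control replicate 2 and PDGF-DD replicate 3. The fold difference was 1.00 with a 95% interval of 0.858 to 1.17 (edgeR adjusted p = 0.979).

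**Figure D2:**
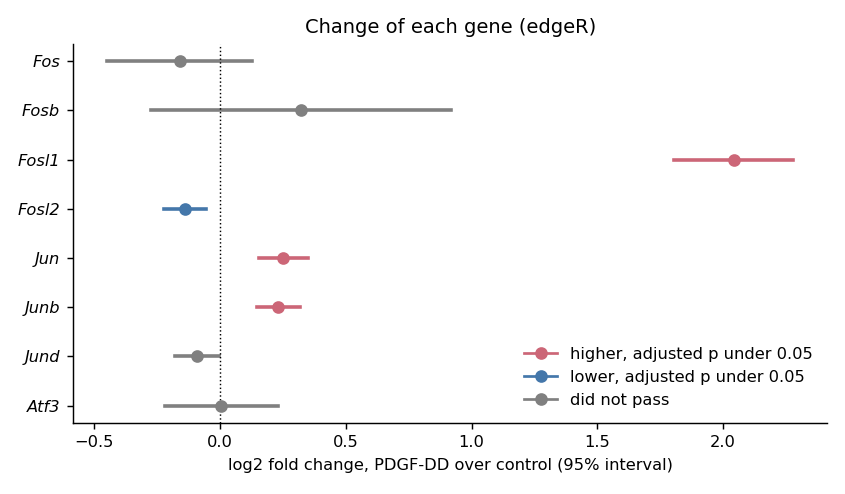
Log2 fold change of each gene, PDGF-DD over control, with its 95% interval from the edgeR fit; colours mark genes called higher, called lower or not passing. Fosl1 lies at 2.04, Jun and Junb lie near 0.25 and 0.23, and the interval of Fosb is the widest.

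Ranked per length, Jund and Junb transcripts were the most abundant in both groups and Fosb the least. In control the order was Jund (144 ± 11.0 TPM), Junb (130 ± 4.02), Fosl2 (49.1 ± 1.81), Jun (42.0 ± 1.74), Fosl1 (12.8 ± 2.60), Atf3 (8.73 ± 1.27), Fos (4.31 ± 0.48) and Fosb (0.52 ± 0.09; SD, n = 3 for each). Only Fosl1 and Atf3 overlapped as neighbours in that order. With PDGF-DD the order was Junb (151 ± 6.66 TPM), Jund (134 ± 0.52), Fosl1 (52.6 ± 2.98), Jun (49.7 ± 0.58), Fosl2 (44.2 ± 2.00), Atf3 (8.69 ± 0.81), Fos (3.83 ± 0.12) and Fosb (0.64 ± 0.21; SD, n = 3 for each). Fosl1 and Jun were then the only neighbours that overlapped. Fosl1 moved from rank 5 to rank 3, and Junb and Jund exchanged ranks 1 and 2. The length behind each value, recovered from the deposited counts and FPKM, differed between libraries by no more than the rounding of the files for all 8 genes, so these levels rest on the same length in both groups.

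Within the Fos family the leading transcript was another one with PDGF-DD. Fosl1 made up 21.3%, 15.1% and 21.2% of the summed Fos family TPM in control and 51.4%, 51.6% and 52.8% in the treated libraries. Fosl2, which held 71.5% to 76.8% of the family in control, held 42.9% to 44.5% with PDGF-DD. A share also falls when another member rises. The level of Fosl2 itself differed little, at 49.1 and 44.2 TPM, while that of Fosl1 went from 12.8 to 52.6 TPM. The ratio of Fosl1 to Fosl2 was 0.197 to 0.298 in control and 1.15 to 1.23 with PDGF-DD, so Fosl1 was the leading Fos family transcript in every treated library and in no control. Fos itself held 6.47% ± 0.91 and 3.79% ± 0.30 of the family (SD, n = 3 each).

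Shares within the Jun family differed by a few percentage points. Junb went from 41.1% ± 0.87 to 45.1% ± 1.12 of the summed Jun family TPM, Jun from 13.3% ± 0.37 to 14.8% ± 0.21, and Jund from 45.6% ± 1.09 to 40.1% ± 0.95 (SD, n = 3 each). The ratio of Junb to Jund was 0.856 to 0.932 in control and 1.06 to 1.16 with PDGF-DD. The families together summed to 369, 376 and 404 TPM in control and 441, 424 and 445 TPM with PDGF-DD. Jun family transcripts exceeded Fos family transcripts 4.73 ± 0.11 fold in control and 3.31 ± 0.09 fold with PDGF-DD. These sums and shares were computed over chosen genes and are given without a test. They describe transcripts, and protein levels were not measured here.

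**Figure D3:**
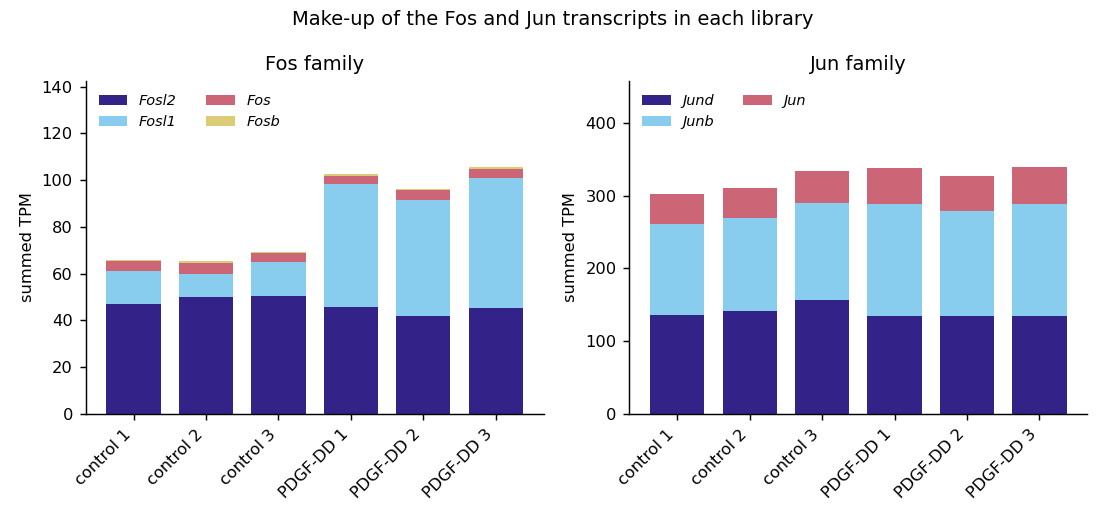
Summed TPM of the Fos family (left) and Jun family (right) in each library, stacked by gene. The Fos family sum is 65.2 to 69.3 TPM in control and 96.2 to 105 TPM with PDGF-DD, and the Fosl1 segment is taller. The Jun family sums of the groups overlap, at 303 to 334 and 328 to 339 TPM.

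The bases before the transcription start are shown for 4 of the genes, chosen after their values were seen. Jun and Junb rose, while Fos and Atf3, which carry the same short element as Junb, did not pass. Windows of 250 bases before the start came from the RefSeq table of assembly GRCm38.p6, which lists all of the 8 genes but Fosl1. That build differs from the mm9 named by the submitters, and the coordinates are those of GRCm38.p6. Capitals mark the cyclic AMP response half-site TGACG (or CGTCA, the same element on the other strand) and, in Jun, the AP-1-like element TGACATCA through which c-Jun is known to act on its own gene.
Jun, chr4:95052223-95052472, minus strand: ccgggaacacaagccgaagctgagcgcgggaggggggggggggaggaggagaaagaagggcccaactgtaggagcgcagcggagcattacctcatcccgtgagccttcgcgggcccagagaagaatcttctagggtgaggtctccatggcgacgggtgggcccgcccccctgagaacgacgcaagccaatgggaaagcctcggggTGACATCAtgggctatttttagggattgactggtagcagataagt
Junb, chr8:84978749-84978998, minus strand: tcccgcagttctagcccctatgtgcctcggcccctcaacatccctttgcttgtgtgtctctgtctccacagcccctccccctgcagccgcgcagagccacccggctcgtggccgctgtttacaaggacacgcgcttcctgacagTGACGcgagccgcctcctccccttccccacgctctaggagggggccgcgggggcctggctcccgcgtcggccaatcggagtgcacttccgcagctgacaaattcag
Fos, chr12:85473640-85473889, plus strand: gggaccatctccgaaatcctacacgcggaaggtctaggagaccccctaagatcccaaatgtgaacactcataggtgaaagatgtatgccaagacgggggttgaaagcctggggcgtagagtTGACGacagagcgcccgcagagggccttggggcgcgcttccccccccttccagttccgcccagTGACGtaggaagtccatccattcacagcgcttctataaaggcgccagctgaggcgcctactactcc
Atf3, chr1:191183334-191183583, minus strand: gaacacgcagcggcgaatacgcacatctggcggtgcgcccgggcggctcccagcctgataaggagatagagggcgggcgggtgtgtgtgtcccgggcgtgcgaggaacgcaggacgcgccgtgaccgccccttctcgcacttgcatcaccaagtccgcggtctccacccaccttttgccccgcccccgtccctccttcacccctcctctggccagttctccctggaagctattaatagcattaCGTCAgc
The half-site was found on either strand in Fos, Fosb, Junb and Atf3, 4 of the 7 genes, and in 17.8% of the 32851 windows in the table. In Fos it lay 66 and 129 bases before the start, counted to its far end, in Junb 106, in Fosb 60 and in Atf3 7. TGACATCA was found in Jun only, 45 bases before the start, and in 2.93% of all windows. The AP-1 sequence TGANTCA, searched with any middle base (in 6.75% of all windows), was in none of the 7 windows. Neither was the full response element TGACGTCA, which contains the half-site (1.55%), or the CArG box bound by serum response factor (1.47%). These are matches of letters in a short window, and elements farther away were not searched. Genes with the half-site included 1 that rose (Junb) and 3 that did not pass (Fos, Fosb and Atf3). Jun, which also rose, lacked it. Fos, Fosb and Atf3 had far fewer counts than Junb. The fold intervals of Fosb (0.827 to 1.89) and Atf3 (0.858 to 1.17) overlapped that of Junb (1.11 to 1.25). The interval of Fos (0.732 to 1.09) did not. Changes were not compared between genes by a test, so not passing does not by itself set these 3 genes apart from Junb. Any link between the element and the changes was not tested.

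Other leucine zipper factors, only some of which are known to pair with Fos or Jun proteins, went both ways by small amounts. Of 29 listed genes 25 could be tested, and 5 were called higher and 5 lower, near the 19.1% and 17.4% of all tested genes. The median log2 fold change was -0.06. Maff, a small Maf protein that lacks an activating domain, rose from 36.8 ± 1.30 to 50.3 ± 2.21 CPM (SD, n = 3 each; log2 fold change 0.45, edgeR adjusted p = 1.68e-07). Nfe2l1, a regulator of proteasome genes, fell from 372 ± 16.9 to 309 ± 6.59 CPM, Atf2, a kinase-activated partner of c-Jun, fell from 51.5 ± 0.86 to 44.0 ± 0.80 CPM, and the stress factor Ddit3 fell from 78.5 ± 6.04 to 66.7 ± 3.54 CPM. The most abundant, Atf4 and Atf5, did not pass, with log2 fold changes of 0.02 and -0.08. Jdp2, named after its value was seen, is a repressor that binds AP-1 sites, and stood at 80.8 ± 2.19 and 79.9 ± 4.53 CPM (edgeR adjusted p = 0.82). Under upper-quartile scaling 4 genes were higher and 7 lower, and 3 were higher in DESeq2 and without control replicate 3 or PDGF-DD replicate 3.

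Genes that act upstream of AP-1, the kinases of the ERK, JNK and p38 pathways, the factors that switch on Fos and Jun genes, and regulators of their RNA and protein stability, also went both ways. Of 35 tested genes 10 were called higher and 8 lower, beside 19.1% and 17.4% of all tested genes. The median log2 fold change was 0.06. Zfp36l2, an RNA-binding protein that destabilises transcripts with AU-rich ends, rose from 92.6 ± 2.38 to 117 ± 2.78 CPM (SD, n = 3 each; edgeR adjusted p = 3.01e-07), while its relative Zfp36l1 fell from 211 ± 12.1 to 181 ± 10.1 CPM. Elk3, a partner of serum response factor, rose (log2 fold change 0.23), and the kinase gene Braf and the transcription factor gene Mef2c fell by 0.37 and 0.48 on the log2 scale. Mapk3, which encodes ERK1 and was the most abundant gene of the list per length, fell from 151 ± 2.14 to 135 ± 4.24 CPM (edgeR adjusted p = 0.00189). Serum response factor itself (Srf), named after its value was seen, did not pass, at 93.2 ± 6.99 and 96.9 ± 3.00 CPM (edgeR adjusted p = 0.404). Upper-quartile scaling gave 6 higher and 9 lower, and without PDGF-DD replicate 3 the number higher was 5.

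Genes known as targets of AP-1 mostly rose. Of 34 tested genes 22 were called higher and 4 lower, against 19.1% and 17.4% of all tested genes. The median log2 fold change was 0.43. The list was drawn up with earlier results of these data known, so this count is a description and no independent evidence. Hmga1, a chromatin protein gene whose reads can be shared with near-identical copies, and Ccnd1, which encodes cyclin D1, rose by log2 fold changes of 1.23 and 1.13. Sprr1a, a small proline-rich protein of stressed epithelium and heart, rose from 40.0 ± 2.93 to 118 ± 8.16 CPM (SD, n = 3 each; edgeR adjusted p = 2.35e-14). Vim, the intermediate filament gene vimentin and one of the 2 most abundant of the list, rose by a log2 fold change of 0.19.

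The 4 targets that fell, named after their values were seen, were the membrane protease gene Mmp14, the growth factor gene Vegfa, the membrane linker gene Ezr and the proteoglycan gene Dcn, with log2 fold changes of -0.30, -0.19, -0.45 and -0.22. Also named after their values were seen, the collagenase gene Mmp13 rose from 1.16 ± 0.10 to 3.38 ± 0.41 CPM and the stromelysin gene Mmp3 from 111 ± 7.66 to 130 ± 6.95 CPM (SD, n = 3 each). Il6, another textbook target, did not pass, at 15.7 ± 2.34 and 17.3 ± 0.86 CPM (edgeR adjusted p = 0.238).

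**Figure D4:**
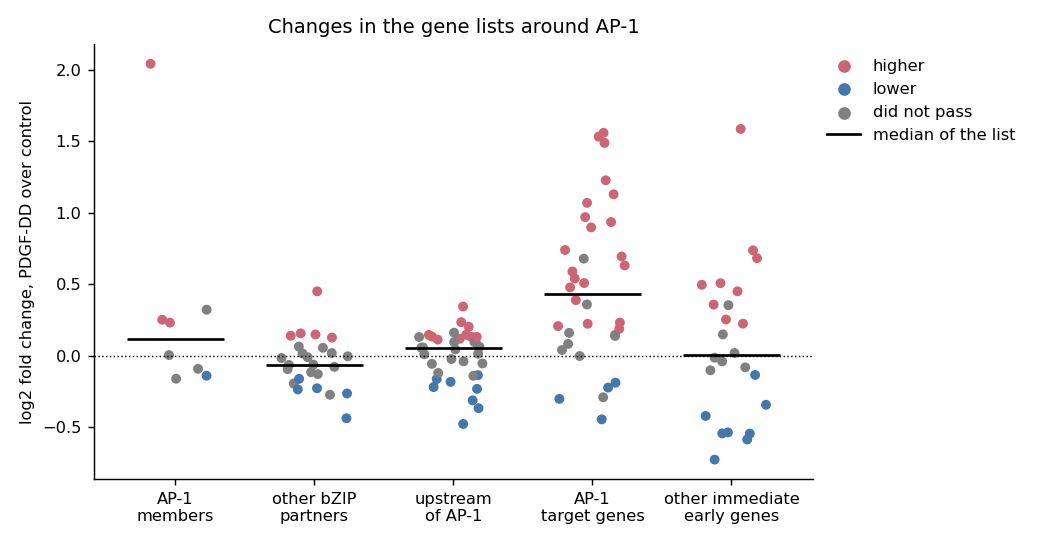
Log2 fold change, PDGF-DD over control, of each tested gene in the 8 AP-1 genes and in 4 lists around them; colours mark the calls, black bars the list medians, and sideways position has no meaning. The median of the target genes is 0.43, and the medians of the other 3 lists lie between -0.06 and 0.06.

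Other immediate early genes, which share the fast induction of Fos and Jun, were split at 12 hours. Of 24 tested genes 9 were called higher and 8 lower, beside 19.1% and 17.4% of all tested genes. The median log2 fold change was 0.00. Egr2 rose from 3.84 ± 0.72 to 11.5 ± 0.95 CPM and Myc from 88.2 ± 4.00 to 124 ± 1.80 CPM, while the Krüppel-like factor genes Klf2 and Klf4 fell by 0.73 and 0.55 on the log2 scale. The most abundant, Ccn2 and Ccn1, rose by log2 fold changes of 0.22 and 0.25. Egr1 and Dusp1 are named after their values were seen. Egr1, usually induced alongside Fos, rose from 55.7 ± 5.95 to 89.4 ± 5.35 CPM (SD, n = 3 each; edgeR adjusted p = 2.61e-06). Dusp1, a phosphatase gene induced by stress and mitogens, fell from 72.8 ± 3.05 to 54.4 ± 0.76 CPM. Maff belongs to this list as well as to that of the zipper factors.

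Across the 6 libraries the genes most like Fosl1, by Pearson correlation of log2 CPM over 10458 genes averaging 5 CPM or more, included Rffl, Cdc7, Slc29a2 and S1pr3, all with r of 0.998 or 0.999. Mean levels of S1pr3, a receptor for a sphingosine lipid, were 19.5 CPM (control) and 38.1 CPM (PDGF-DD). Those of Cdc7, a kinase that starts DNA replication, were 10.3 and 14.7 CPM. The points are 2 groups of 3 libraries, so these correlations rest mostly on the difference between groups, and the changes differed in size, with log2 fold changes from 0.25 for Rffl to 0.96 for S1pr3. For Fosb, the gene with the widest spread within groups, the most like were Anks6, Nr2f6, Ess2, Eif2b4 and Tlnrd1 (r between 0.965 and 0.988). Fosb rested on 15 to 30 counts per library, and in such sparse counts this likeness is no finding.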

How the data were processed

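Messenger RNA of 6 libraries was captured on oligo(dT) beads, per the labels' protocols, and sequenced on DNA nanoballs. The submitters' processing notes name RSEM 1.2.12, DESeq2 1.4.5, HISAT2 2.0.4 and Bowtie2 2.2.5, and build mm9. What each tool did, which annotation was used and whether strand was used is not given in the sources used here. Reads of overlapping, antisense or near-identical genes may therefore be shared. Per the file headers, the authors deposited for each library estimated counts without normalization, FPKM values (per kilobase, scaled to depth) and TPM values (scaled to a common sum). Between 31.9% and 32.7% of the estimated counts are not whole.

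Counts were rounded, filtered with filterByExpr (13270 genes of 18059 left), scaled with TMM factors and compared with the robust quasi-likelihood test of edgeR 4.0.16 in R 4.3.3, without covariates. Adjusted p-values cover all tested genes. Intervals use the test's total degrees of freedom, and SE is the log2 fold change divided by the root of F. The method was tested on simulated data, with 50 genes changed at each size. It recovered 30% of them at 1.15-fold, 78% at 1.32-fold, 92% at 1.52-fold and 100% at 2-fold. The simulation tested 13262 genes, so the changed share was far smaller than the 36.5% called in the data. It also gave every gene the same spread beyond counting. In that setting most changes near 1.15-fold failed to pass, and these rates do not carry over directly to the measured genes. Depth of about the same size in all libraries limits Fos and Fosb most. Alternatives were upper-quartile and total count scaling, DESeq2 1.42.0, limma-voom (limma 3.58.1), no low-count filter, a replicate block, leaving out each library, and limma on log2 TPM or FPKM.

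The members and lists were chosen with earlier results of these data known. Named genes are the 8 members; from each list the 2 most abundant genes and up to 4 called ones of smallest p; and the 5 genes most like the member with the largest change and the member with the widest spread. Others are said to have been named after their values were seen, and some genes the rule allows are not reported here by name.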

Additional observations from a re-analysis of the deposited data

How the results depend on the processing

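The calls of Fosl1, Jun and Junb as higher, and those of Fos and Fosb as not passing, held under every alternative that gave a value, 15 for each gene except 14 for Fosb, whose FPKM was too low for that fit. Fosl1 ranged from 1.88 to 2.14 on the log2 scale. Leaving out 1 library at a time gave log2 fold changes from 0.063 to 0.55 for Fosb, -0.25 to -0.092 for Fos, -0.15 to -0.10 for Fosl2, -0.12 to -0.042 for Jund and -0.060 to 0.12 for Atf3. For Fosl2 the value was -0.15 in limma on log2(TPM + 1) and -0.15 on log2(TPM + 0.1), neither of which passed, and Jund passed at -0.11 under upper-quartile scaling. Atf3, which never passed, was at -0.016 under upper-quartile scaling, -0.05 without control replicate 1, -0.05 without control replicate 3, -0.060 without PDGF-DD replicate 3, -0.0019 on log2(TPM + 1) and -0.0016 on log2(TPM + 0.1). Among the 8 genes 2 were lower under upper-quartile scaling, and 0 to 2 with 1 library left out. Of the zipper factors 3 were higher in DESeq2 and 3 to 5 with 1 library left out. Of the upstream genes 6 were higher under upper-quartile scaling, 6 in DESeq2 and 5 to 10 with 1 library left out. The causes were not tested. Replicate numbers are shared between groups, but deviations of same-numbered libraries correlated at -0.07, -0.09 and -0.03, so they were not treated as pairs. With a replicate block 5 upstream genes were higher, and 3 of the 8 AP-1 genes were higher and 1 lower. Shares by FPKM in place of TPM are equal by construction, apart from rounding, and test nothing. Depth limits Fos and Fosb, and no group is large enough for an outlier test.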
